A study of Mus musculus with 12 samples.

Results

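The genes described here encode the nuclear-encoded subunits of the mitochondrial respiratory chain (complexes I, III and IV) and of ATP synthase (complex V) in sorted mouse bone marrow cells. They were chosen by name alone: every probe set annotated to exactly 1 gene symbol beginning with Ndufa, Ndufb, Ndufc, Ndufs, Ndufv, Uqcr, Cox4 to Cox8 or Atp5 was taken, Ndufaf symbols were left out, and the probe sets of a gene were averaged. This gave 76 of the 15858 genes measured, from 153 of 28805 probe sets. By symbol, 35 of the 76 genes belong to complex I, 8 to complex III, 16 to complex IV and 17 to ATP synthase. The rule itself uses no measured value, but it was set with earlier results of these data known.

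Bone marrow cells of C57BL6 mice had been immortalised with HoxA9, a homeobox gene whose overexpression blocks myeloid differentiation, and all 4 groups carry this background. The cells were transduced with an empty vector, with pSF91-IDH1wt-IRES-EGFP (the IDH1wt group) or with pSF91-IDH1mut-IRES-GFP (the IDH1mut group), and were transplanted into irradiated recipients. By title, source name and construct, recipients of empty vector cells in the R-2HG group received R-2HG, the metabolite that mutant IDH1 makes. The dose was 1 mg per day for 4 weeks. The description field of these samples names the IDH1mut vector instead, a conflict that the labels do not resolve. The other groups received no R-2HG, and no group is labelled as given vehicle, so R-2HG and the dosing itself cannot be told apart. GFP-positive marrow cells were sorted 4 weeks after transplantation or treatment, and their RNA was hybridised to Affymetrix arrays, 3 arrays per group. The labels do not name the IDH1 mutation, the species of the IDH1 cDNA or a clone, and the IDH1 genes are overexpressed from a retroviral vector beside the cells' own Idh1. Whether the 3 replicates of a group are separate mice is not stated, so p-values measure the spread between these samples only, which may be technical.

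Complexes I, III and IV pass electrons from NADH to oxygen and pump protons across the inner mitochondrial membrane, and ATP synthase lets the protons flow back to make ATP. Most of their subunits are encoded in the nucleus, a small core of them in mitochondrial DNA, and nuclear respiratory factor 1 (NRF1), ETS factors such as GABP, and YY1 are known regulators of the nuclear genes. Immature haematopoietic cells are known to rely less on this pathway than dividing progenitors do.

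The values were log2 expression values that had been centred for each probe set, so a value states how far an array lies above or below that probe set's centre and carries no absolute level. Levels can therefore not be compared between genes, and the labelled cell type could not be checked against the level of its markers. Between pairs of arrays of the same group the SD of the differences over all probe sets was 0.178 to 0.362 (log2), and between pairs of different groups 0.294 to 0.555. R-2HG replicates 1 and 2 stood apart from replicate 3 in the 6 measured markers of mast cells, basophils and eosinophils, with array medians of -3.57, -3.55 and 0.49. Results for R-2HG are therefore also given without replicates 1 and 2 together, and the subunit genes called against empty vector without them are named. For fits with arrays left out the share of all genes called is not given, so counts from them have no background beside them. The medians of the same 3 arrays were -0.94, -0.997 and 0 over 7 erythroid markers, -0.81, -1.07 and 0.46 over 5 dendritic cell markers, -0.64, -0.77 and 0.018 over 6 B cell markers, and -0.37, -0.38 and 0 over 5 T and NK cell markers. The B cell median was highest in IDH1mut replicate 3 (1.26) and empty vector replicate 1 (1.16). Of 9 mature neutrophil markers, 7 were higher in IDH1mut than in empty vector and 7 in R-2HG. All 5 primary granule markers were lower in both. Of 7 monocyte and macrophage markers, 3 were lower in IDH1mut and 3 in R-2HG. Of 7 proliferation markers, 1 was lower in IDH1mut and 4 in R-2HG. These counts are at a limma adjusted p under 0.05 against empty vector. In IDH1mut 12.1% of all genes were lower and 10.5% higher, and in R-2HG 24.3% and 16.5%. The part of these markers in the results below was not tested, and in RNA of a sorted population fewer cells of a type and less RNA per cell cannot be told apart.

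Stretches of promoters are shown first because the genes moved largely together and because these factors are known to bind many of them. RefSeq promoters of assembly GRCm38.p6, 300 bases each with 250 before and 50 after the annotated start, were matched by symbol for 62 of the 76 genes, which gave 67 promoters. The NRF1 motif GCGCATGCG, searched on both strands, was in 10.4% of the 67 and in 1.75% of all 32851 promoters. A looser form with any base at its sixth position, GCGCANGCG, which includes the strict form, was in 23.9% and 6.25%. The ETS motif CCGGAAG was in 22.4% and 8.86%, and the YY1 motif AAGATGGCG in 8.96% and 1.40%. The shorter YY1 core AAGATGG, which the longer form contains, was in 14.9% and 6.34%. At least 1 of these was in the promoters of 34 genes and none in those of 28.

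Capitals mark the motifs in the following stretches, all read 5′ to 3′ on the gene's own strand. The first pair carries NRF1 motifs and comes from Ndufa8 (chr2:36049339-36049398, minus strand, the 60 bases before the start, with a looser and a strict match) and Uqcr11 (chr10:80406814-80406921, minus strand, 108 bases, with an ETS match before the NRF1 match at the start).
Ndufa8: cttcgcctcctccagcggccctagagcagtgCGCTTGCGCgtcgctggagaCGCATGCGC
Uqcr11: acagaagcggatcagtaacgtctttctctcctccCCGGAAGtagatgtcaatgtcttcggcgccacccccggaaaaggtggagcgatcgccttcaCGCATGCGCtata

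The next stretches show a looser NRF1 match in Ndufa5 (chr6:24527691-24527750, minus strand) and ETS matches in Ndufs3 (chr2:90904722-90904781, minus strand), Uqcrh (chr4:116075071-116075130, minus strand) and Atp5h (chr11:115419920-115419979, minus strand). Atp5g1 (chr11:96075632-96075691, minus strand) is shown as a gene with none of the motifs.
Ndufa5: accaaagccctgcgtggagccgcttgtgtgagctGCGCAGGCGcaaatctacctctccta
Ndufs3: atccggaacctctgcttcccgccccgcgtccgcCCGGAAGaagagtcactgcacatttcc
Uqcrh: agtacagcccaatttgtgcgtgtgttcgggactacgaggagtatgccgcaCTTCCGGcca
Atp5h: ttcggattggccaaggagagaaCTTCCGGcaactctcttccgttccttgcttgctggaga
Atp5g1: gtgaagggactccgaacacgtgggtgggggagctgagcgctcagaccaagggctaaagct

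In 3 genes the match lies just after the annotated start: YY1 in Ndufc1 (chr3:51408917-51408941, minus strand) and Ndufs7 (chr10:80249465-80249489, plus strand), and NRF1 in Uqcrc1 (chr9:108936670-108936695, plus strand).
Ndufc1: tgcggaacAAGATGGCGccgtccgt
Ndufs7: ccgaggccAAGATGGCGgcgctggc
Uqcrc1: tccgctctGCGCATGCGCagcgcggc

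The matches are set beside the results as a description, with no test. Lower with R-2HG were 12 of 15 with the ETS motif and 34 of 47 without it, 5 of 6 with the YY1 motif and 41 of 56 without it, 6 of 10 with the YY1 core and 40 of 52 without it, 4 of 7 with the strict NRF1 motif and 42 of 55 without it, and 11 of 15 with the looser NRF1 form and 35 of 47 without it. Lower in IDH1mut were, with and without each motif, 4 of 15 and 19 of 47 for ETS, 2 of 6 and 21 of 56 for YY1, 2 of 10 and 21 of 52 for the YY1 core, 3 of 7 and 20 of 55 for the strict NRF1 motif, and 7 of 15 and 16 of 47 for its looser form. No motif went with a higher share of lower genes in both groups. A match says only that these letters are in the window, and factor binding was not measured.

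By the group means of their array medians, the subunit genes formed an order, highest in empty vector cells, then IDH1wt, then IDH1mut, and lowest in R-2HG. For the first step none of the 76 genes was called between IDH1wt and empty vector. For the second, 10.5% of the subunit genes were lower in IDH1mut than in IDH1wt, where 7.29% of all genes were. Most of those calls were lost with single arrays left out. The last step was not set apart by its calls: 17.1% of the subunit genes were higher in IDH1mut than in R-2HG, where 20.3% of all genes were. The median over the 76 genes was 0.10, 0.17 and 0.16 in the 3 empty vector arrays, 0.10, 0.0012 and 0.0080 in IDH1wt, 0.030, 0 and -0.15 in IDH1mut, and -0.15, -0.12 and -0.090 in R-2HG. Empty vector and R-2HG arrays did not overlap, whereas IDH1wt replicate 1 equalled the lowest empty vector array to 2 decimals and IDH1mut replicate 3 equalled the lowest R-2HG array. The median over all genes lay between -0.017 and 0.014 in each of the 12 arrays. A difference among the groups (F test of the limma fit, adjusted p under 0.05) was called for 50 of the 76 genes, where 54.6% of all genes were called, so that the share of subunit genes that differed at all stood near the background and their direction is what the next comparisons describe.

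**Figure D1:**
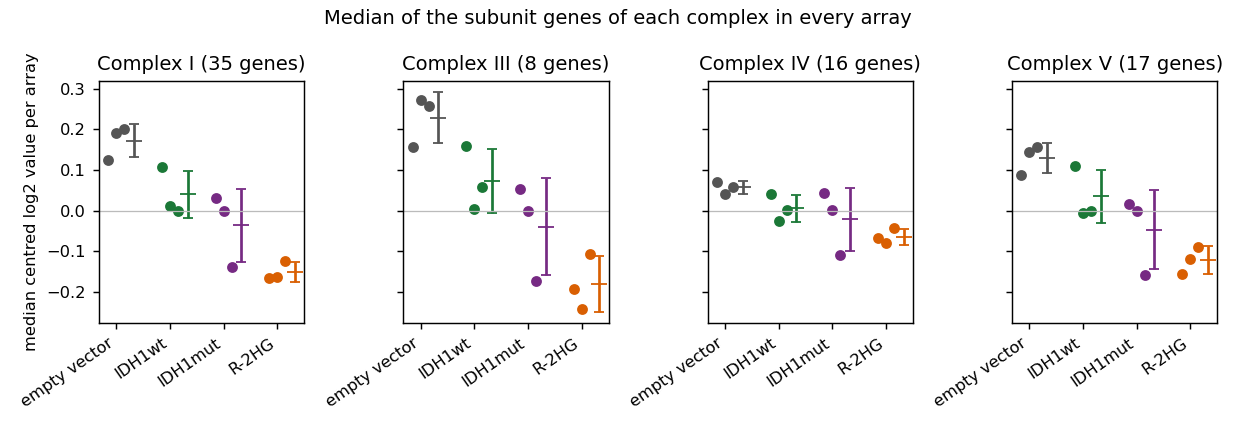
Median centred log2 value of the subunit genes of each complex (vertical axis) in every array, by group, with group mean and SD (bars, n = 3 arrays). In complexes I, III, IV and V every R-2HG array lies below every empty vector array, and IDH1mut replicate 3 is the lowest array of its group in each complex.

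With R-2HG, subunit genes fell in all 4 complexes. Against empty vector, 53 of 76 genes were lower and 1 was higher (limma, Benjamini-Hochberg adjusted p under 0.05), where 24.3% of all genes tested were lower and 16.5% higher. Their median log2 difference was -0.26, and that of all genes 0.0030. By complex, 26 of 35 genes of complex I fell (median -0.35), 7 of 8 of complex III (-0.36), 7 of 16 of complex IV (-0.18) and 13 of 17 of ATP synthase (-0.25). With R-2HG replicate 3 as the only treated array, which is then assumed to vary like the others, the medians were -0.30, -0.29, -0.16 and -0.24. The genes still called lower were Ndufa5, Ndufab1, Ndufb2, Ndufb5, Ndufc1, Ndufs8, Ndufv1, Ndufv2, Cox7a1, Atp5a1, Atp5e, Atp5g1 and Atp5md. None of the other R-2HG calls against empty vector passed without replicates 1 and 2. The share of all genes called in this fit is not given, so these calls cannot be set against a background.

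With mutant IDH1 subunit genes also fell, most of them in complexes I and III, with smaller medians than with R-2HG. Against empty vector, 25 of 76 genes were lower and 3 higher, where 12.1% of all genes were lower and 10.5% higher, and the median was -0.19 against -0.047 for all genes. In complex I 15 of 35 genes fell (median -0.21), in complex III 4 of 8 (-0.24), in complex IV 2 of 16 (-0.11) and in ATP synthase 4 of 17 (-0.17). The number called in either direction went from 28 to 14 without empty vector replicate 2 or without empty vector replicate 3 and to 16 without IDH1mut replicate 3, the lowest array of its group. Without IDH1mut replicate 3 the medians were -0.15, -0.18, -0.067 and -0.12, with 9, 2, 1 and 1 genes lower.

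With wild-type IDH1 none of the 76 genes was called in either direction by limma, where 0.561% of all genes were lower and 0.788% higher. At an unadjusted limma p under 0.05, 17 of the 76 genes passed, where 2573 of all 15858 genes did. With array weights in the fit 12 of the 76 passed the adjusted threshold, and the share of all genes in that fit is not given. The medians were -0.14 in complex I, -0.14 in complex III, -0.033 in complex IV and -0.090 in ATP synthase, against -0.036 for all genes. These 3 comparisons share the empty vector arrays.

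**Figure D2:**
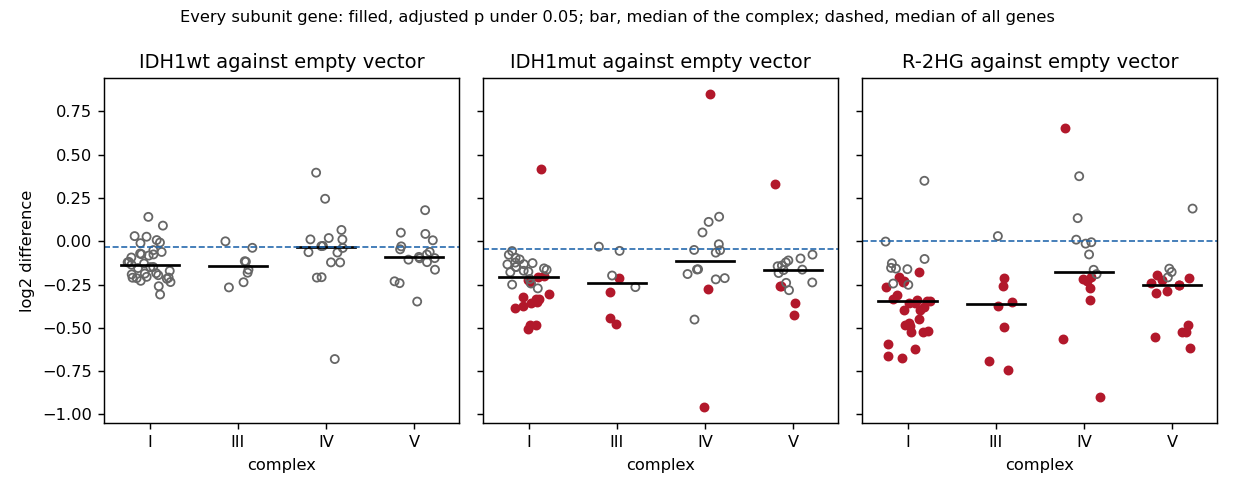
Log2 difference of each of the 76 genes against empty vector (vertical axis), by complex, for IDH1wt, IDH1mut and R-2HG. Filled points have a limma adjusted p under 0.05, bars mark the median of the complex and the dashed line the median of all genes; 53 points are filled below 0 with R-2HG, 25 with IDH1mut and 0 with IDH1wt.

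The comparisons without the empty vector arrays differed in their counts. IDH1mut was lower than IDH1wt for 8 of the 76 genes and higher for 1. Of the subunit genes 10.5% were thus lower and 1.32% higher, where 7.29% of all genes were lower and 8.37% higher. The 8 were Ndufb5, Ndufb2, Ndufa5, Ndufc1, Ndufa12 and Ndufa9 of complex I, Uqcrc1 of complex III and Cox6b2 of complex IV. The 9 calls became 3 without IDH1wt replicate 1 or without IDH1mut replicate 3, and 4 without IDH1wt replicate 3. R-2HG was lower than IDH1wt for 30 genes and higher for 2, where 23.0% of all genes were lower and 21.4% higher; without R-2HG replicates 1 and 2 together, 5 genes were called. IDH1mut was higher than R-2HG for 13 genes and lower for 3, which is 17.1% and 3.95% of the subunit genes, where 20.3% of all genes were higher and 15.8% lower. The 16 calls became 8 without R-2HG replicate 1 or without R-2HG replicate 2, 10 without IDH1mut replicate 2, and 0 without R-2HG replicates 1 and 2 together.

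Complex I takes electrons from NADH through a flavin and a chain of iron-sulfur clusters, held by core subunits that are found from bacteria to mammals. Of the 6 nuclear core genes measured, Ndufs3, Ndufs7, Ndufs8, Ndufv1 and Ndufv2 fell with R-2HG, and Ndufs8 and Ndufv2 also fell in IDH1mut. Over all genes, 24.3% were lower with R-2HG and 12.1% in IDH1mut. Ndufv1, which binds NADH and the flavin, read 0.13, 0.16 and 0.21 in empty vector, 0.19, 0.16 and 0.17 in IDH1wt, 0.084, 0.013 and -0.11 in IDH1mut and -0.39, -0.39 and -0.19 in R-2HG. It was lower with R-2HG by a log2 difference of -0.49 ± 0.076 (SE of the limma fit, n = 3 per group, as for all errors of differences below; adjusted p = 0.000516) and not called in IDH1mut (-0.17, adjusted p = 0.131). Ndufs7, which carries the last iron-sulfur cluster before ubiquinone, read 0.10, 0.18 and 0.16 in empty vector, 0.086, 0 and -0.029 in IDH1wt, 0.11, 0.075 and -0.024 in IDH1mut, and -0.44, -0.42 and -0.16 in R-2HG. Its R-2HG arrays lay below all others (-0.49 ± 0.083, adjusted p = 0.000898 against empty vector, and -0.30, adjusted p = 0.076 with R-2HG replicate 3 alone), and it was higher in IDH1mut than in R-2HG by 0.39 ± 0.083 (adjusted p = 0.00523). Without R-2HG replicates 1 and 2 together this difference was 0.21 (adjusted p = 0.254), and no subunit gene was then called between IDH1mut and R-2HG.

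Ndufs1, the largest core subunit, which holds several of the iron-sulfur clusters, went the other way in IDH1mut. Its values were -0.086, 0.070 and 0 in empty vector, 0.10, 0.16 and 0.15 in IDH1wt, 0.53, 0.28 and 0.43 in IDH1mut and -0.15, -0.30 and -0.047 in R-2HG. Every IDH1mut array was above every array of the other groups. It was the only complex I gene higher in IDH1mut than in empty vector, by 0.42 ± 0.086 (1.34-fold, adjusted p = 0.00459), and it exceeded R-2HG by 0.58 ± 0.086 (adjusted p = 0.00119; 0.46, adjusted p = 0.0687 without R-2HG replicates 1 and 2). Its excess over IDH1wt (0.28, adjusted p = 0.0477) was lost when any of 5 arrays was left out, among them IDH1mut replicate 1 (0.22, adjusted p = 0.15). Ndufs1 was measured by 1 probe set.

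The supernumerary subunits surround the core and are needed for its assembly and stability. Of 27 measured, 20 fell with R-2HG and 12 in IDH1mut, and none was called higher in either. Over all genes, 24.3% were lower and 16.5% higher with R-2HG, and 12.1% and 10.5% in IDH1mut. Ndufc1, a small membrane subunit, had the largest difference of complex I in both comparisons. It read 0.29, 0.44 and 0.39 in empty vector, 0.24, 0.072 and 0.16 in IDH1wt, -0.058, -0.028 and -0.31 in IDH1mut and -0.32, -0.35 and -0.23 in R-2HG. The difference from empty vector was -0.51 ± 0.088 in IDH1mut (1.42-fold lower, adjusted p = 0.0016) and -0.68 ± 0.088 with R-2HG (1.60-fold lower, adjusted p = 0.000202), and the IDH1mut and R-2HG arrays overlapped (difference 0.17, adjusted p = 0.152).

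Ndufb2 and Ndufb5, both subunits of the membrane arm, showed the same order. Ndufb2 read 0.27, 0.30 and 0.31 in empty vector, 0.18, 0.027 and 0.12 in IDH1wt, -0.14, -0.14 and -0.30 in IDH1mut, and -0.20, -0.30 and -0.18 in R-2HG. Its difference from empty vector was -0.48 ± 0.071 in IDH1mut (adjusted p = 0.000595) and -0.52 ± 0.071 with R-2HG (adjusted p = 0.00026). Ndufb5 read 0.33, 0.38 and 0.39 in empty vector, 0.56, 0.18 and 0.33 in IDH1wt, -0.042, -0.12 and -0.19 in IDH1mut, and -0.30, -0.28 and -0.20 in R-2HG. IDH1wt replicate 1 was the highest Ndufb5 array, and every IDH1mut and R-2HG array lay below every array of the other groups. IDH1mut was lower than IDH1wt by -0.47 ± 0.090 (adjusted p = 0.00474) for Ndufb5 and by -0.30 ± 0.071 for Ndufb2 (adjusted p = 0.0145, or 0.0558 without IDH1wt replicate 1).

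Ndufa5, a subunit of the arm that reaches into the matrix, stepped down from IDH1mut to R-2HG. Its values were 0.19, 0.32 and 0.31 in empty vector, 0.39, 0.20 and 0.21 in IDH1wt, 0.023, 0 and -0.11 in IDH1mut, and -0.52, -0.41 and -0.24 in R-2HG. No R-2HG array overlapped an IDH1mut array, and no IDH1mut array overlapped empty vector or IDH1wt. Against empty vector it fell by 0.66 with R-2HG (1.59-fold, adjusted p = 0.000214). In IDH1mut it fell by 0.30 (adjusted p = 0.0264), which was not called without empty vector replicate 2 (adjusted p = 0.0878), empty vector replicate 3 (0.0877), IDH1mut replicate 2 (0.0536) or IDH1mut replicate 3 (0.0928).

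Ndufb1, a small membrane subunit, had the largest complex I difference in IDH1wt without passing the threshold there. It read 0.14, 0.39 and 0.24 in empty vector, 0.030, -0.036 and -0.15 in IDH1wt, 0.023, -0.14 and -0.17 in IDH1mut and -0.041, 0 and 0.0087 in R-2HG, so that all 9 other arrays lay below the empty vector arrays. The differences were -0.31 in IDH1wt (adjusted p = 0.0959), -0.35 in IDH1mut (adjusted p = 0.01) and -0.27 with R-2HG (adjusted p = 0.0235). The R-2HG call was lost without empty vector replicate 2 (-0.20, adjusted p = 0.103), empty vector replicate 3 (0.0527), R-2HG replicate 1 (0.0738) or R-2HG replicate 2 (0.0578). Ndufab1, the mitochondrial acyl carrier protein, by contrast fell with R-2HG (-0.47 ± 0.068, adjusted p = 0.000348), with values of -0.44, -0.35 and -0.22 there, and stayed between 0.032 and 0.15 in the 9 other arrays.

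Ndufa4 is counted with complex I by its symbol, although it is now known as a subunit of complex IV, and Ndufa4l2 is its paralogue, known to be induced in hypoxia. Ndufa4 read 0.13, 0.19 and 0.15 in empty vector, 0.18, 0.038 and 0.0032 in IDH1wt, -0.10, 0.010 and -0.12 in IDH1mut, and -0.19, -0.25 and -0.16 in R-2HG. Its R-2HG arrays were the lowest, with a difference from empty vector of -0.35 ± 0.070 (adjusted p = 0.00206, and 0.0812 with R-2HG replicate 3 alone). Ndufa4l2 read 0, -0.13 and -0.13 in empty vector, -0.093, 0.012 and -0.089 in IDH1wt, -0.11, 0.10 and -0.72 in IDH1mut, and 0.30, 0.39 and 0.10 in R-2HG. Its difference from empty vector was 0.35 ± 0.16 with R-2HG (adjusted p = 0.105), and its only call, IDH1mut lower than R-2HG (-0.51, adjusted p = 0.031), rested on IDH1mut replicate 3, without which the difference was -0.27 (adjusted p = 0.069), and was also lost without R-2HG replicate 1 (adjusted p = 0.085) or R-2HG replicate 2 (adjusted p = 0.106).

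**Figure D3:**
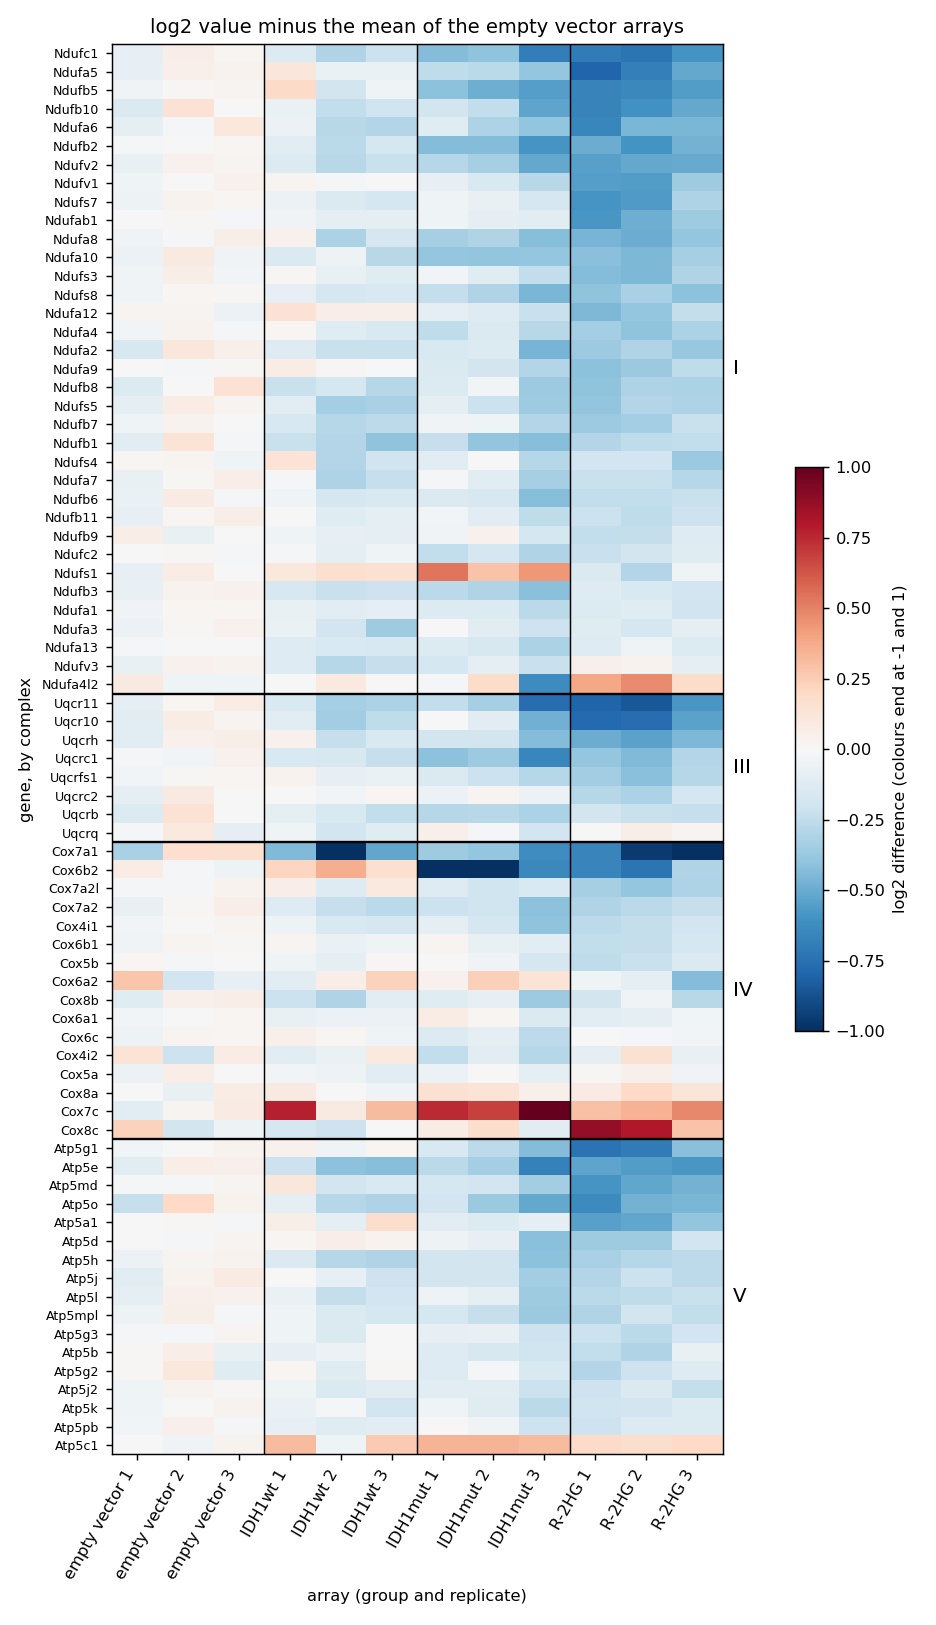
Log2 value of each of the 76 genes (rows, by complex, sorted by the R-2HG difference) in each of the 12 arrays (columns), minus the gene's empty vector mean; blue is lower, red higher, and colours end at -1 and 1. The blue block spans most rows of the R-2HG columns and, more faintly, of the IDH1mut columns, while Ndufs1, Cox7c, Atp5c1 and Cox8c stand out in red.

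Complex III passes electrons from ubiquinol to cytochrome c. Its 2 core proteins, the Rieske iron-sulfur protein and 4 of 5 small subunits fell with R-2HG, and Uqcrq did not (0.030 ± 0.081, adjusted p = 0.791). In IDH1mut the 4 genes lower were Uqcrc1, Uqcr11, Uqcrb and Uqcrfs1. The shares of all genes lower were 24.3% with R-2HG and 12.1% in IDH1mut. Uqcrc1, core protein 1, read 0.28, 0.27 and 0.33 in empty vector, 0.14, 0.13 and 0.058 in IDH1wt, -0.12, -0.071 and -0.36 in IDH1mut and -0.10, -0.15 and 0 in R-2HG. It was the complex III gene with the largest IDH1mut difference from empty vector (-0.48 ± 0.082, 1.39-fold lower, adjusted p = 0.00156), larger than its R-2HG difference (-0.37 ± 0.082, adjusted p = 0.0039, and 0.145 with R-2HG replicate 3 alone), although IDH1mut and R-2HG did not differ beyond their spread (-0.10, adjusted p = 0.336). Core protein 2, Uqcrc2, fell with R-2HG (-0.26, adjusted p = 0.0114, and 0.292 with R-2HG replicate 3 alone), was not called in IDH1mut (-0.031, adjusted p = 0.793) and was higher in IDH1mut than in R-2HG by 0.23 ± 0.069 (adjusted p = 0.025).

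Uqcr11, the smallest subunit of complex III, had the largest R-2HG difference of the complex. It read 0.23, 0.35 and 0.41 in empty vector, 0.18, 0 and 0.013 in IDH1wt, 0.085, 0 and -0.43 in IDH1mut and -0.47, -0.52 and -0.25 in R-2HG. The difference from empty vector was -0.74 ± 0.13 with R-2HG (1.68-fold lower, adjusted p = 0.000823) and -0.45 ± 0.13 in IDH1mut (adjusted p = 0.0229). IDH1mut replicate 3 lay within the R-2HG range and the other IDH1mut arrays did not, and without it the IDH1mut difference was -0.29 (adjusted p = 0.0713). The IDH1mut call was also lost without empty vector replicate 2 (adjusted p = 0.0675) or replicate 3 (adjusted p = 0.0838). The R-2HG call was lost without R-2HG replicates 1 and 2 together (-0.59, adjusted p = 0.0593).

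Uqcr10, another small subunit, read 0.22, 0.39 and 0.34 in empty vector, 0.21, -0.028 and 0.064 in IDH1wt, 0.31, 0.21 and -0.17 in IDH1mut and -0.46, -0.44 and -0.22 in R-2HG. It fell with R-2HG (-0.69 ± 0.12, adjusted p = 0.00105, and -0.53, adjusted p = 0.0705 with R-2HG replicate 3 alone), and IDH1mut replicates 1 and 2 lay near empty vector and replicate 3 below both. Uqcrfs1, the Rieske protein, read 0.19, 0.22 and 0.23 in empty vector, 0.24, 0.13 and 0.15 in IDH1wt, 0.066, 0 and -0.074 in IDH1mut and -0.14, -0.21 and -0.077 in R-2HG. Its difference from empty vector was -0.35 ± 0.067 with R-2HG (adjusted p = 0.00172, and 0.0866 with R-2HG replicate 3 alone). That of IDH1mut was -0.21 (adjusted p = 0.0378), and this call was lost with every array of either group left out except IDH1mut replicate 1, at adjusted p-values of 0.0646 to 0.117.

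Complex IV, cytochrome c oxidase, passes the electrons to oxygen, and several of its subunits have isoforms made in particular tissues. It moved least as a group. Of 9 common subunits, 4 fell with R-2HG, where 24.3% of all genes were lower. They were Cox4i1, Cox5b, Cox6b1 and Cox7a2, by 0.21 to 0.27, and each call was lost when a single array was left out. Cox5a, Cox6a1, Cox6c, Cox7c and Cox8a were not called with R-2HG. In IDH1mut 1 common subunit, Cox7a2, fell (-0.27, adjusted p = 0.0227), where 12.1% of all genes were lower. That call was lost without empty vector replicate 2 (adjusted p = 0.0679), empty vector replicate 3 (0.0925) or IDH1mut replicate 3 (0.0834). Cox7a2l read 0.14, 0.15 and 0.20 in empty vector, 0.23, 0.037 and 0.26 in IDH1wt, 0.033, -0.038 and 0.0091 in IDH1mut and -0.17, -0.22 and -0.14 in R-2HG. Its R-2HG arrays lay below all others (-0.34 ± 0.071, adjusted p = 0.00287, and 0.0952 with R-2HG replicate 3 alone).

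Cox7c, a common small subunit, was higher in IDH1mut than in empty vector by 0.85 ± 0.16 (1.80-fold, adjusted p = 0.00253). It read -0.53, -0.40 and -0.35 in empty vector, 0.35, -0.34 and -0.11 in IDH1wt, 0.32, 0.26 and 0.69 in IDH1mut and -0.13, -0.078 and 0.056 in R-2HG. Empty vector was lowest, and IDH1wt replicate 1 lay within the IDH1mut range. In both of its probe sets every IDH1mut array was above every empty vector array. The difference of R-2HG from empty vector was 0.38 ± 0.16 (adjusted p = 0.0765).

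Of the 6 tissue isoforms of complex IV measured, 3 had differences that passed the test. Cox6b2, known as the testis form of Cox6b, read 0.090, 0 and -0.036 in empty vector, 0.23, 0.38 and 0.18 in IDH1wt, -1.21, -0.99 and -0.62 in IDH1mut and -0.64, -0.71 and -0.28 in R-2HG. It was lower than empty vector by -0.96 ± 0.14 in IDH1mut (1.94-fold, adjusted p = 0.000649) and by -0.56 ± 0.14 with R-2HG (1.48-fold, adjusted p = 0.00873), and lower than IDH1wt by -1.20 ± 0.14 in IDH1mut (2.30-fold, adjusted p = 0.000345). The R-2HG call against empty vector was lost without R-2HG replicates 1 and 2 together (-0.30, adjusted p = 0.327) and after a second quantile normalization (-0.41, adjusted p = 0.0746). The common form Cox6b1 read 0.033, 0.092 and 0.079 in empty vector, 0.092, 0.0018 and 0.027 in IDH1wt, 0.094, -0.0028 and -0.038 in IDH1mut and -0.18, -0.17 and -0.11 in R-2HG. IDH1mut arrays thus overlapped empty vector for Cox6b1 (-0.050, adjusted p = 0.624) and lay far below it for Cox6b2.

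Cox7a1, the heart and muscle form of Cox7a, read 0.30, 0.79 and 0.78 in empty vector, 0.18, -0.46 and 0.10 in IDH1wt, 0.27, 0.24 and 0 in IDH1mut and -0.042, -0.34 and -0.46 in R-2HG. The empty vector arrays were the highest, and R-2HG was lower by -0.90 ± 0.18 (1.87-fold, adjusted p = 0.00232). The differences of -0.45 in IDH1mut (adjusted p = 0.0952) and -0.68 in IDH1wt (adjusted p = 0.0908) did not pass, and without empty vector replicate 1 the IDH1mut difference was -0.61 (adjusted p = 0.0374). The common form Cox7a2 read 0.11, 0.20 and 0.25 in empty vector, 0.055, -0.045 and -0.089 in IDH1wt, -0.028, -0.015 and -0.23 in IDH1mut and -0.12, -0.089 and -0.051 in R-2HG.

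Cox8c, known as a testis form of Cox8, was the only subunit gene higher with R-2HG. It read 0.052, -0.36 and -0.22 in empty vector, -0.34, -0.38 and -0.17 in IDH1wt, -0.10, 0 and -0.28 in IDH1mut and 0.70, 0.62 and 0.11 in R-2HG. The difference from empty vector was 0.66 ± 0.15 (1.57-fold, adjusted p = 0.0052). R-2HG replicates 1 and 2, the arrays set apart by the mast cell, basophil and eosinophil markers, were high and replicate 3 lay just above empty vector replicate 1; without replicates 1 and 2 the difference was 0.29 (adjusted p = 0.287).

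Of the remaining isoforms, averaged over their probe sets, Cox4i1 was called against empty vector and Cox8a, Cox8b, Cox4i2, Cox6a1 and Cox6a2 were not. Cox8a, the common form, read -0.071, -0.15 and 0.0066 in empty vector, 0.023, -0.074 and -0.11 in IDH1wt, 0.081, 0.065 and -0.022 in IDH1mut and 0.0087, 0.13 and 0.054 in R-2HG, and Cox8b lay between -0.24 and 0.19 in all arrays. The 3 probe sets of Cox8a differed, with R-2HG differences from empty vector of 0.60 (adjusted p over all probe sets = 0.00173), -0.11 (0.276) and -0.086 (0.369), and the first was also higher in IDH1mut (0.40, 0.0252). Cox4i1 read 0.13, 0.15 and 0.18 in empty vector, 0.10, 0 and -0.012 in IDH1wt, 0.066, -0.021 and -0.25 in IDH1mut and -0.11, -0.085 and -0.036 in R-2HG. Its R-2HG difference of -0.23 (adjusted p = 0.0398) was not called without any 1 of the empty vector arrays or of R-2HG replicates 1 and 2, at adjusted p-values of 0.0641 to 0.112. Cox4i2, the form known from hypoxic lung, overlapped between empty vector and R-2HG (-0.0057 ± 0.10, adjusted p = 0.971), as did Cox6a2 (-0.19 ± 0.14, adjusted p = 0.292). Of the 2 probe sets of Cox6a2, the first was lower with R-2HG (-0.38, adjusted p over all probe sets = 0.042) and higher in IDH1mut than in R-2HG (0.60, 0.00729), and the second was at 0.0050 (0.984) and 0.067 (0.774). Cox6a1 differed by -0.076 ± 0.069 with R-2HG (adjusted p = 0.398).

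**Figure D4:**
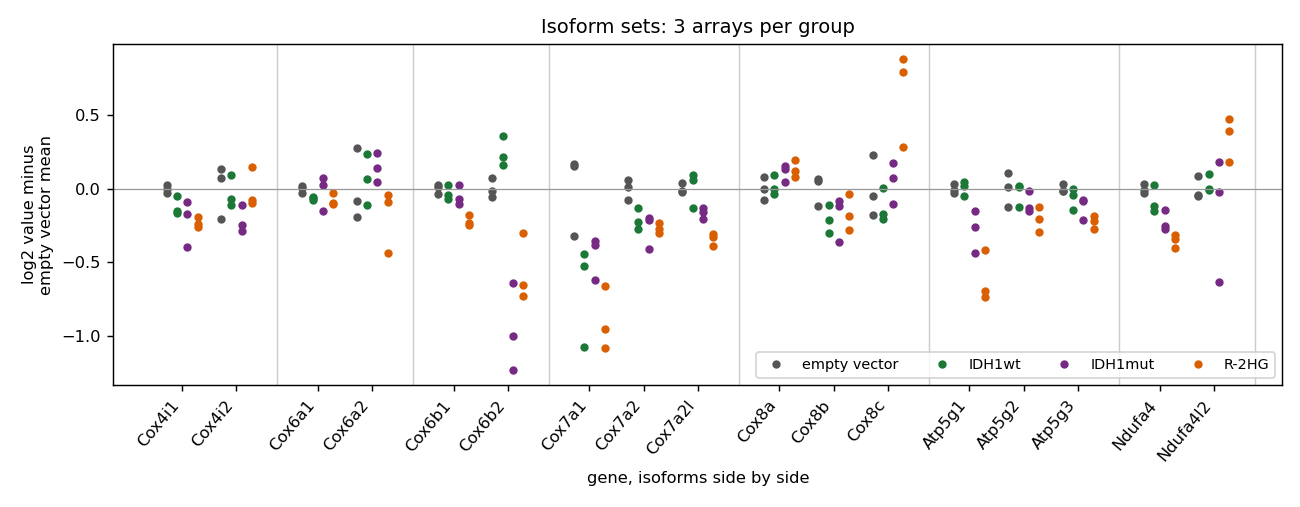
Log2 value minus the empty vector mean (vertical axis) of the isoform sets Cox4i, Cox6a, Cox6b, Cox7a, Cox8, Atp5g and Ndufa4, with 1 point per array and 3 arrays per group. Cox6b2 is low in IDH1mut and R-2HG beside a narrow Cox6b1, Cox8c is high in 2 R-2HG arrays, and Atp5g1 is lower in the R-2HG arrays than Atp5g3 and than Atp5g2, whose points average 2 probe sets that differ.

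ATP synthase consists of the catalytic F1 head, the rotating c ring, a peripheral stalk and membrane subunits. With R-2HG, 4 of 5 F1 genes fell, 2 of 3 c ring genes, 3 of 4 stalk genes and 4 of 5 membrane genes, where 24.3% of all genes were lower. In IDH1mut the counts were 1, 0, 2 and 1, where 12.1% of all genes were lower and 10.5% higher. In IDH1mut 1 F1 gene, Atp5c1, was called higher. Atp5a1, the alpha subunit of the head, read 0.13, 0.14 and 0.12 in empty vector, 0.19, 0.046 and 0.31 in IDH1wt, 0.029, -0.0014 and 0.034 in IDH1mut and -0.41, -0.39 and -0.26 in R-2HG. It fell with R-2HG (-0.49 ± 0.075, 1.40-fold, adjusted p = 0.000509), was not called in IDH1mut (-0.11, adjusted p = 0.326), and was higher in IDH1mut than in R-2HG by 0.37 ± 0.075 (adjusted p = 0.00415; 0.28, adjusted p = 0.166 without R-2HG replicates 1 and 2). Atp5b, the beta subunit, differed less with R-2HG (-0.21, adjusted p = 0.039, and -0.078, adjusted p = 0.658 with R-2HG replicate 3 alone).

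Atp5e, the small epsilon subunit, had the largest ATP synthase difference in IDH1mut and in IDH1wt. It read 0.23, 0.42 and 0.40 in empty vector, 0.14, -0.062 and -0.074 in IDH1wt, 0.081, 0.011 and -0.33 in IDH1mut and -0.18, -0.21 and -0.23 in R-2HG. All other arrays lay below empty vector, by -0.43 ± 0.11 in IDH1mut (adjusted p = 0.0122), by -0.55 ± 0.11 with R-2HG (adjusted p = 0.00172) and by -0.35 ± 0.11 in IDH1wt, which did not pass (adjusted p = 0.127). Atp5md, a membrane subunit that helps the enzyme form dimers, read 0.18, 0.18 and 0.22 in empty vector, 0.30, 0.0085 and 0.039 in IDH1wt, 0.017, 0 and -0.16 in IDH1mut and -0.40, -0.32 and -0.28 in R-2HG, where it was lowest (-0.52 ± 0.086, adjusted p = 0.000723).

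The c ring protein is encoded by 3 genes whose mature proteins are known to be identical, so only their transcripts can differ. Atp5g1 read 0.10, 0.12 and 0.16 in empty vector, 0.17, 0.080 and 0.15 in IDH1wt, -0.024, -0.13 and -0.31 in IDH1mut and -0.61, -0.57 and -0.29 in R-2HG. It was lower with R-2HG by -0.62 ± 0.095 (1.53-fold, adjusted p = 0.0005), and the IDH1mut difference of -0.28 fell just outside the threshold (adjusted p = 0.051). Atp5g2 read 0.10, 0.20 and -0.031 in empty vector, 0.11, -0.034 and 0.10 in IDH1wt, -0.043, 0.076 and -0.063 in IDH1mut and -0.20, -0.12 and -0.036 in R-2HG. Its R-2HG difference was -0.21 ± 0.081 (adjusted p = 0.0575), an average of 2 Atp5g2 probe sets that differ. The first was lower with R-2HG by -0.56 (adjusted p over all probe sets = 0.000299) and in IDH1mut by -0.44 (0.0022), beside -0.62 and -0.28 for Atp5g1, and the second was at 0.15 (0.407) and 0.24 (0.23). Atp5g3 read 0.059, 0.057 and 0.10 in empty vector, 0.032, -0.069 and 0.071 in IDH1wt, -0.010, 0 and -0.14 in IDH1mut and -0.14, -0.20 and -0.12 in R-2HG, a difference of -0.23 ± 0.067 (adjusted p = 0.0189, lost without empty vector replicate 3 or R-2HG replicate 1 or 2, at 0.0507 to 0.0731). Whether Atp5g1 differed from the other two in its response was not tested.

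Atp5c1, the gamma subunit that turns within the head, was higher in IDH1mut by 0.33 ± 0.086 (adjusted p = 0.0148, or 0.0538 without empty vector replicate 2), but its 2 probe sets did not move together. In the first the values were -0.64, -0.71 and -0.63 in empty vector and 0.15, 0.12 and 0.28 in IDH1mut. In the second, whose probes can match several transcripts, they were 0.17, 0.16 and 0.21 in empty vector and 0.053, 0.089 and -0.12 in IDH1mut. The direction of Atp5c1 thus depends on the probe set. Of the 45 genes with several probe sets, Atp5j2 had probe sets called in both directions in IDH1mut, and Atp5c1, Atp5j2, Ndufc2 and Uqcrq did with R-2HG. Ndufs1, Cox7c and Atp5c1 were named because they are the 3 genes higher in IDH1mut, which was known only after their values were seen.

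Counted by probe set rather than by gene, 91 of 153 were lower with R-2HG and 8 higher, where 23.8% of all probe sets were lower and 15.7% higher. In IDH1mut 39 were lower and 7 higher, where 10.7% and 11.2% of all probe sets were.

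Among other genes of the pathway, complex II and the electron carriers fell in part in both groups. Of 9 genes of complex II and the electron carriers, 4 fell in IDH1mut and 7 with R-2HG, and none was called higher, where 12.1% and 24.3% of all genes were lower. Etfb, which brings electrons from fatty acid oxidation, fell by 0.72 in IDH1mut (adjusted p = 0.000281), and Cycs, cytochrome c itself, by 0.37 (adjusted p = 0.00222). With R-2HG, Sdhc, a membrane anchor of complex II, fell by 0.58 (adjusted p = 0.000152) and Etfa, the partner of Etfb, by 0.51 (adjusted p = 0.00018). Without R-2HG replicates 1 and 2 together, 3 of the 9 were lower.

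Assembly factors build the complexes and are not part of them. Of 44 measured, 33 were lower with R-2HG (median -0.50) and none higher, where 24.3% of all genes were lower and 16.5% higher. In IDH1mut 16 were lower (median -0.18) and none higher, where 12.1% and 10.5% of all genes were. Sdhaf3, an assembly factor of complex II, read 0.43, 0.67 and 0.66 in empty vector, 0.55, 0.21 and 0.35 in IDH1wt, -0.13, 0.026 and 0 in IDH1mut and -0.95, -0.84 and -0.64 in R-2HG. No array of R-2HG overlapped IDH1mut and none of IDH1mut overlapped empty vector, with a difference from empty vector of -1.40 ± 0.11 with R-2HG (adjusted p = 2.64e-05). IDH1mut lay -0.62 ± 0.11 from empty vector (adjusted p = 0.00169). Sdhaf1, another complex II factor, fell by 0.88 with R-2HG (adjusted p = 3.84e-05), and Cox16, a complex IV factor, by 0.40 in IDH1mut (adjusted p = 0.0012). IDH1mut was higher than R-2HG for 24 of the 44 assembly factors and lower for 0, where 20.3% of all genes were higher and 15.8% lower, and without R-2HG replicates 1 and 2 together 1 was higher. Against empty vector, 19 were lower with R-2HG without those replicates, and 11 in IDH1mut without its replicate 3.

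Of 20 regulators of mitochondrial biogenesis and of mitochondrial DNA expression, 5 fell and 2 rose in IDH1mut, and 11 fell and 1 rose with R-2HG, where 12.1% of all genes were lower and 10.5% higher in IDH1mut, and 24.3% and 16.5% with R-2HG. The genes that rose were Polg, the mitochondrial DNA polymerase (0.23, adjusted p = 0.0324), and Mterf1a, a terminator of mitochondrial transcription (0.41, adjusted p = 0.01), in IDH1mut, and Esrra, a nuclear receptor that works with Ppargc1a (0.63, adjusted p = 0.0011), with R-2HG; they were named after their values were seen. Ppargc1a, a coactivator known to drive NRF1 targets, read 0.73, 0.72 and 0.89 in empty vector, 0.27, 0.053 and 0.22 in IDH1wt, -0.23, -0.26 and -0.14 in IDH1mut and -0.18, -0.13 and -0.12 in R-2HG. The empty vector arrays were highest and IDH1wt intermediate, without overlap, and the differences were -0.99 ± 0.078 in IDH1mut (adjusted p = 1.62e-05), -0.92 with R-2HG (adjusted p = 3.51e-05) and -0.60 in IDH1wt (adjusted p = 0.00242). Polrmt, the mitochondrial RNA polymerase, fell by 0.31 in IDH1mut (adjusted p = 0.00267). Myc, which promotes growth and mitochondrial biogenesis, read 0.42, 0.37 and 0.38 in empty vector, 0.28, 0.37 and 0.23 in IDH1wt, -0.23, 0.035 and 0 in IDH1mut and -0.98, -0.91 and -0.42 in R-2HG (-1.16 ± 0.13 against empty vector, adjusted p = 9.1e-05). Without R-2HG replicates 1 and 2 together, 5 of the 20 were lower and 0 higher. Without IDH1mut replicate 3, 4 were lower and 1 higher in IDH1mut.

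Of 5 genes of the ATP synthase inhibitor, the ADP/ATP and phosphate carriers and Atp5md, 2 fell and 1 rose in IDH1mut, and 2 fell with R-2HG. Over all genes, 12.1% were lower and 10.5% higher in IDH1mut and 24.3% lower with R-2HG. Atp5md, among those that fell with R-2HG, is also counted above as a subunit gene of ATP synthase. Slc25a4, the muscle-type ADP/ATP carrier, fell by 0.56 in IDH1mut (adjusted p = 0.00245) and by 1.00 with R-2HG (adjusted p = 7.39e-05). Slc25a5, the carrier of dividing cells, fell in IDH1mut (-0.33, adjusted p = 0.00439) and was not called with R-2HG (-0.10, adjusted p = 0.281). The gene that rose in IDH1mut was Slc25a3, the phosphate carrier (0.35, adjusted p = 0.0339), and without IDH1mut replicate 3 none of the 5 was called higher.

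Of the complex I subunits encoded in mitochondrial DNA, ND5 was measured, by 1 probe set. It read 0.54, 0.44 and 0.27 in empty vector, 0.41, 0.29 and 0.30 in IDH1wt, -0.14, -0.41 and -0.17 in IDH1mut and -0.021, 0.043 and -0.098 in R-2HG. IDH1mut and R-2HG did not overlap empty vector or IDH1wt, and the differences from empty vector were -0.65 ± 0.093 in IDH1mut (adjusted p = 0.000477) and -0.44 ± 0.093 with R-2HG (adjusted p = 0.00304), against -0.083 in IDH1wt (adjusted p = 0.708).

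**Figure D5:**
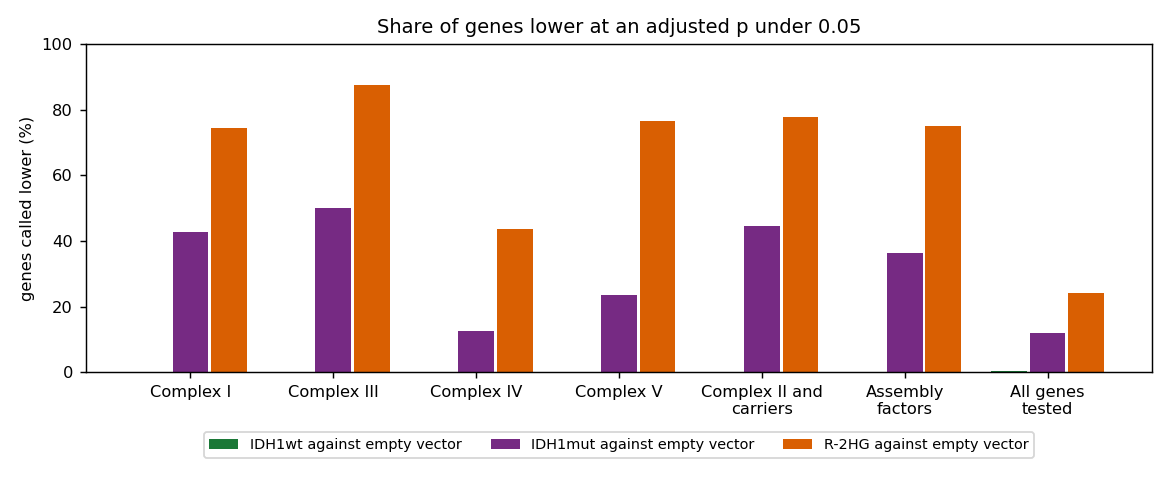
Share of genes lower than empty vector at a limma adjusted p under 0.05 (vertical axis, percent), by complex, for complex II with the electron carriers, for the assembly factors and for all genes tested. With R-2HG the shares lie above the 24.3% of all genes in every set, and with IDH1mut complex IV stands near the 12.1% of all genes; the IDH1wt bars are 0 except for all genes.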

How the data were processed

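Total RNA of 12 samples, 3 in each of 4 groups, was measured on Affymetrix arrays. The authors deposited a table of log2 values that names RMA as its tool, per the submitters' processing notes, with no version. The values are centred for each probe set, and the reference of the centring is not given in the sources used here. The table holds 32533 probe sets, named through the platform annotation: 28805 have 1 gene symbol, 757 several and 2971 none, and only the first kind was used. Arrays give no read depth, and their number limits the precision. Groups came from titles, source names and constructs, not from the description field, which names the IDH1mut vector for the R-2HG samples. If that field were right, every comparison with R-2HG would have another meaning.

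Each of 15858 genes was fitted by lmFit and eBayes of limma 3.58.1 (R 4.3.3), with 1 coefficient per group, 8 residual degrees of freedom, two-sided tests, and Benjamini-Hochberg adjustment over all genes at a threshold of 0.05. No low-value filter was set, so all 76 genes were tested. The scripts were tested on simulated data. Figures were drawn with matplotlib 3.10.9. Values in all arrays are given, per complex, for the 3 genes with the smallest F test p, the gene with the largest difference in each comparison against empty vector, and the isoform sets; of other lists the 2 called genes with the smallest p are named, and any member may be named. Members, lists and rules were chosen with earlier results of these data known, and the lists stand as descriptions. Alternatives were another normalization, probe set rules, prior trend, array weights, a replicate block, fits of 6 arrays, an SD filter, a fold minimum and arrays left out; those on the lists of other genes were added after seeing the data.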

Additional observations from a re-analysis of the deposited data

How the results depend on the processing

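Alternatives changed counts more than directions, and beyond what is said here the cause was not tested. The 28 genes called in IDH1mut against empty vector became 17 with an SD filter and 2 with a 1.5-fold minimum. Some of the 28 were removed by the SD filter and so were not tested there. The number called was 14 to 31 with single arrays left out. Apart from the fold minimum, 13 of the 28 were called under every alternative that tested them, as were 13 of the 54 called with R-2HG. Alternatives that dropped a gene or all its probe sets were not counted for it. Those 54 became 9 with the fold minimum, 13 without R-2HG replicates 1 and 2 together and 36 to 51 with single arrays left out, where fewer arrays by construction give less precision. IDH1wt against empty vector gave 1 with the probe set of highest SD, 1 without probe sets that can match several transcripts and 12 with array weights. The 9 calls of IDH1mut against IDH1wt became 5 with the highest SD, 2 in a fit of 6 arrays, 1 with the fold minimum, and 3 to 6 with single arrays left out. Correlations of deviations from the group means were -0.15 to 0.12 in 18 same-numbered pairs of arrays, 1 above 0.1. In 36 pairs with different numbers they were -0.18 to 0.17, 4 above 0.1. With 3 arrays per group and no label on pairing, these values cannot exclude it. With the replicate as a block the 9 calls of IDH1mut against IDH1wt became 3, with no other count moved over 1.5 times. The 16 calls of IDH1mut against R-2HG became 10 with a second quantile normalization, 30 with array weights, 0 without R-2HG replicates 1 and 2 together, 8 to 20 with single arrays left out, and with the fold minimum 1, Cox8c, which is lower, so that the main direction turned. The 32 of R-2HG against IDH1wt became 5 with the fold minimum and 5 without R-2HG replicates 1 and 2, and the 50 with any difference became 21 without them.

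Medians per complex moved beyond the spread between replicates in a few cases. With the highest SD they were -0.19 (complex IV) and -0.24 (complex V) in IDH1mut, -0.40 (complex I) and -0.34 (complex V) with R-2HG, all against empty vector, and in complex I 0.20 for IDH1mut against R-2HG and -0.30 for R-2HG against IDH1wt. Complex I with R-2HG was -0.31 after quantile normalization and -0.30 without replicates 1 and 2 (complex III -0.29; complex I against IDH1wt -0.18), and complex IV was -0.11 without probe sets that can match several transcripts. With single arrays left out, the R-2HG medians ranged from -0.37 to -0.31 (complex I), -0.20 to -0.10 (complex IV) and -0.30 to -0.23 (complex V), and that of complex IV against IDH1wt from -0.095 to -0.019. Complex IV in IDH1mut against R-2HG ranged from -0.039 to 0.081 and so changed sign. Without probe sets that can match several transcripts, Ndufa12 (0.15) and Ndufc2 (0.10) turned upward with R-2HG, and Ndufa12 turned to -0.13 in IDH1mut against R-2HG.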
